A study of Bos taurus with 10 samples.

Results

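The BAG family and the other cytosolic regulators of the heat shock protein HSP70 were examined in bovine (Bos taurus) oviductal organoids, which are three-dimensional cultures of oviductal epithelium. The members were taken by gene name, namely BAG1 to BAG6, HSPBP1, ST13 and STUB1. Of these 9 names, 8 had a row among the 26804 genes of the table, and BAG5, which had none under this name, was not analysed here. Organoids were grown at 37 °C and kept for the last day either at 42 °C (heat stress, HS) or at 37 °C (thermoneutral), with no other agent or genotype differing between the groups. Each temperature had 5 libraries, called A to E, and each letter stands for a pool of oviducts from 2 slaughterhouse cows in diestrus that supplied both temperatures. Values are TPM, the usual unit of transcript abundance, corrected for transcript length and given as a share of the library. Levels can thus be compared between genes. The study reports its read totals, but TPM holds no read counts per gene.

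HSP70 holds unfolded proteins in a cycle driven by ATP. J-domain proteins load the client and trigger ATP hydrolysis, and nucleotide exchange factors then release ADP, which lets the client go. The BAG domain is typically such an exchange module and binds the ATPase domain of HSP70. The rest of a BAG protein can set where the client is sent, for instance to the proteasome or to autophagy. HSPBP1 is an exchange factor of another fold, ST13 (also called HIP) slows the release by holding the ADP state, and STUB1 (also called CHIP) is a ubiquitin ligase that marks HSP70 and HSP90 clients. The functions given here and below were worked out largely on human and rodent proteins.

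The comparison used 42C A, C, D and E against 37C A to E, since the study set a single HS replicate aside after clustering. That replicate was taken as 42C B, which its clustering plot lacks, although the caption names A to D. The HS mean of HSPA1A that the study prints, 4367.03 TPM, equals the mean of 42C A, C, D and E. HS libraries were not alike: the summed level of 5 cytosolic HSP70 genes (HSPA1A, HSPA1L, HSPA2, HSPA6 and HSPA8) was 4544 TPM in 42C A, between 8971 and 9499 TPM in the C, D and E libraries and 12449.7 TPM in 42C B, against 2212 to 2743 TPM in the thermoneutral libraries. Results are therefore also given without 42C A and with 42C B where these move them. Of the epithelial markers all 6 were expressed, with EPCAM at 507 to 1190.4 TPM over the 10 libraries, and PAX8, a factor of oviductal secretory cells, stood at 62.1 to 91.0 TPM, whereas the oviductal glycoprotein gene OVGP1 did not exceed 0.726 TPM. Of 6 fibroblast markers 5, and of 5 leukocyte markers 5, stayed below 1 TPM in every library. Of 4 endothelial markers 2 did, with KDR at 1.74 to 15.1 TPM and VWF at 1.01 to 4.20 TPM. Of 4 smooth muscle markers 2 did, with ACTA2 at 0.841 to 9.60 TPM and called lower, and CNN1 at 12.9 TPM in 42C B. The 6 epithelial markers summed to 6549.8 to 9623 TPM in the 4 HS libraries of the comparison and 10306 to 13409 TPM in thermoneutral libraries. The lower sum in the comparison was carried by the keratins. In 42C B, which the comparison does not use, the sum was lower still, at 4285 TPM. KRT19 was called lower (mean 1904 TPM in the HS libraries compared, against 5248 TPM in thermoneutral libraries), whereas CLDN4 was called higher (324 TPM, against 128 TPM). EPCAM (1033 TPM, against 657 TPM) and CDH1 (396 TPM, against 200.5 TPM) had higher means in those HS libraries. In 42C B, by contrast, EPCAM (507 TPM), CDH1 (175 TPM) and the keratins were at their lowest of all 10 libraries, and CLDN4 at its highest (545 TPM). The 8 ciliated cell markers summed to 20.4 to 38.2 TPM in HS libraries and 40.9 to 116 TPM in thermoneutral libraries, with 3 of the 8 below 1 TPM everywhere and 4 called lower. Of those 4, TEKT2 averaged 0.238 TPM in the HS libraries compared, against 2.28 TPM in thermoneutral libraries, and TEKT1 0.456 TPM, against 3.46 TPM. TEKT2 thus passed the filter (1 TPM in no fewer than 4 of 9 libraries) only through the thermoneutral libraries, and TEKT1 mainly so. The globin gene HBA reached 5596 TPM in 42C B, against 89.8 to 573 TPM in the other 9 libraries, while HBB and ALAS2 were listed at 0 in all. The part of these markers in the results was not tested, and in such bulk libraries fewer cells of a type cannot be told apart from less RNA per cell.

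Transcript levels were higher in HS organoids for 6 of the 8 members, and BAG3 stood out by size. BAG3 and BAG2 rose past both thresholds of the limma test, which were 0.05 for the adjusted p and 1 for the log2 difference on the log2(TPM + 1) scale. ST13, BAG4, HSPBP1 and BAG1 were higher at an adjusted p below 0.05 with a log2 difference below 1. BAG6 and STUB1 differed by less than their spread, and 0 members were called lower. Against the 2 of 8 members called higher stand 15.8% of all 12149 genes tested, against the 0 called lower 7.14%, and against the 2 called in either direction 22.9%. Without regard to size, 6 of 8 members and 45.1% of all genes were higher at an adjusted p below 0.05. In 6 of 8 members, and in 36.6% of all genes, every HS library lay above every thermoneutral library. The median log2 difference was 0.84 over the members and 0.30 over all genes. With median-ratio scaling, which takes out most of this common shift (median of all genes -0.01), 5 members were higher and 2 lower at an adjusted p below 0.05, against 28.7% and 29.9% of all genes, and only BAG3 passed the fold threshold. Under that scaling 7.55% of all genes were called higher and 11.8% lower, so that lower calls outnumbered higher ones.

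**Figure D1:**
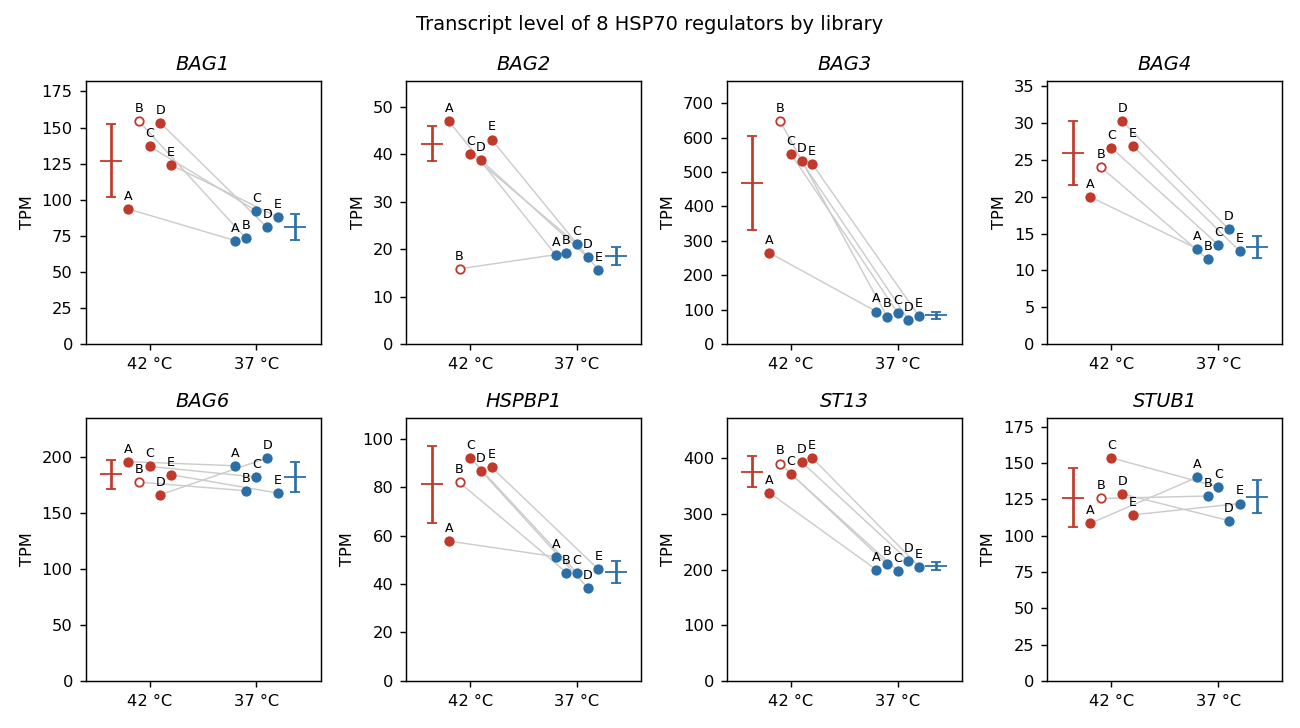
TPM of the 8 members in each library, with 42 °C on the left and 37 °C on the right, letters naming the pool of oviducts, grey lines joining the same pool, the open circle marking 42C B, and bars giving mean and SD (n = 4 at 42 °C without B, n = 5 at 37 °C). BAG3 lies between 265 and 648 TPM in all HS libraries and between 71.3 and 94.9 TPM at 37 °C, BAG2 in 42C B lies within the range of 37 °C, and BAG6 and STUB1 overlap between temperatures.

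BAG3 (ENSBTAG00000013641) carries a BAG domain together with a WW domain and motifs that bind small heat shock proteins, and it directs clients of HSP70 to selective autophagy. It had 265, 553, 531 and 524 TPM in 42C A, C, D and E, against 94.9, 80.5, 90.9, 71.3 and 81.1 TPM in 37C A to E. The groups did not overlap, and 42C A held the lowest HS level while still lying above every thermoneutral library. BAG3 averaged 468 ± 136 TPM in the 4 HS libraries, against 83.7 ± 9.34 TPM in the 5 thermoneutral libraries (mean ± SD), with a log2 difference of 2.42 (95% interval 1.98 to 2.85, limma adjusted p = 1.48e-05). This difference ranked 36th in size among the rises of all 12149 genes. Without 42C A it was 2.67, since the remaining HS libraries averaged 536 ± 15.3 TPM (SD, n = 3), and with median-ratio scaling it was 2.07. Within the pools the ratio of 42 °C to 37 °C was 2.79 for A, 6.08 for C, 7.44 for D and 6.46 for E. The library left out, 42C B, held 648 TPM of BAG3, the highest level of all 10.

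BAG2 (ENSBTAG00000005355), which inhibits the ligase activity of STUB1, had 46.9, 40.1, 38.8 and 43.1 TPM in 42C A, C, D and E, against 18.8, 19.2, 21.01, 18.3 and 15.6 TPM in 37C A to E. The groups of the comparison did not overlap, and unlike BAG3 its highest HS level was in 42C A. BAG2 averaged 42.2 ± 3.64 TPM in the 4 HS libraries, against 18.6 ± 1.95 TPM in the 5 thermoneutral libraries (mean ± SD), a log2 difference of 1.14 (95% interval 0.89 to 1.399, limma adjusted p = 3.18e-05). In 42C B, however, it stood at 15.9 TPM, within the thermoneutral range. With all 10 libraries the difference was 0.87 (limma adjusted p = 0.0144) and BAG2 was no longer called. With median-ratio scaling it was 0.81 and with quantile normalization 0.83, below the fold threshold in both.

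BAG1 (ENSBTAG00000017845) bears a ubiquitin-like domain that links HSP70 to the proteasome. It had 93.6, 137, 153 and 124 TPM in 42C A, C, D and E, against 71.7, 73.4, 92.2, 80.8 and 88.0 TPM in 37C A to E. The groups did not overlap, but 42C A lay close to 37C C. BAG1 averaged 127 ± 25.2 TPM in the 4 HS libraries, against 81.2 ± 8.92 TPM in the 5 thermoneutral libraries (mean ± SD), with a log2 difference of 0.62 (95% interval 0.31 to 0.94, limma adjusted p = 0.00277), which was 0.28 with median-ratio scaling (limma adjusted p = 0.0912). The library 42C B held 154 TPM.

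BAG4 (ENSBTAG00000013143), known as silencer of death domains for its binding to TNF receptor 1, was the least abundant member. It had 19.97, 26.6, 30.2 and 26.9 TPM in 42C A, C, D and E, against 12.97, 11.5, 13.5, 15.6 and 12.6 TPM in 37C A to E, and the groups did not overlap. BAG4 averaged 25.9 ± 4.30 TPM in the 4 HS libraries, against 13.2 ± 1.49 TPM in the 5 thermoneutral libraries (mean ± SD), a log2 difference of 0.91 (95% interval 0.60 to 1.22, limma adjusted p = 0.000248). Without 42C A the difference was 1.03 (limma adjusted p = 2.7e-05) and BAG4 was called. In 42C B it stood at 24.0 TPM, between 42C A and 42C C.

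BAG6 (ENSBTAG00000019685), a large protein that holds newly made tail-anchored membrane proteins, was the second most abundant BAG transcript at 42 °C. It had 196, 192, 166 and 184 TPM in 42C A, C, D and E, against 192, 169.9, 182, 199 and 168 TPM in 37C A to E. The groups overlapped almost fully, and 42C B at 178 TPM lay within both. BAG6 averaged 184 ± 13.1 TPM in the 4 HS libraries, against 182 ± 13.7 TPM in the 5 thermoneutral libraries (mean ± SD). Its log2 difference was 0.02 (95% interval -0.18 to 0.22, limma adjusted p = 0.875), so that a change of the size of BAG2 lay outside the interval. With median-ratio scaling BAG6 was lower, with a log2 difference of -0.32 (limma adjusted p = 0.0144).

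**Figure D2:**
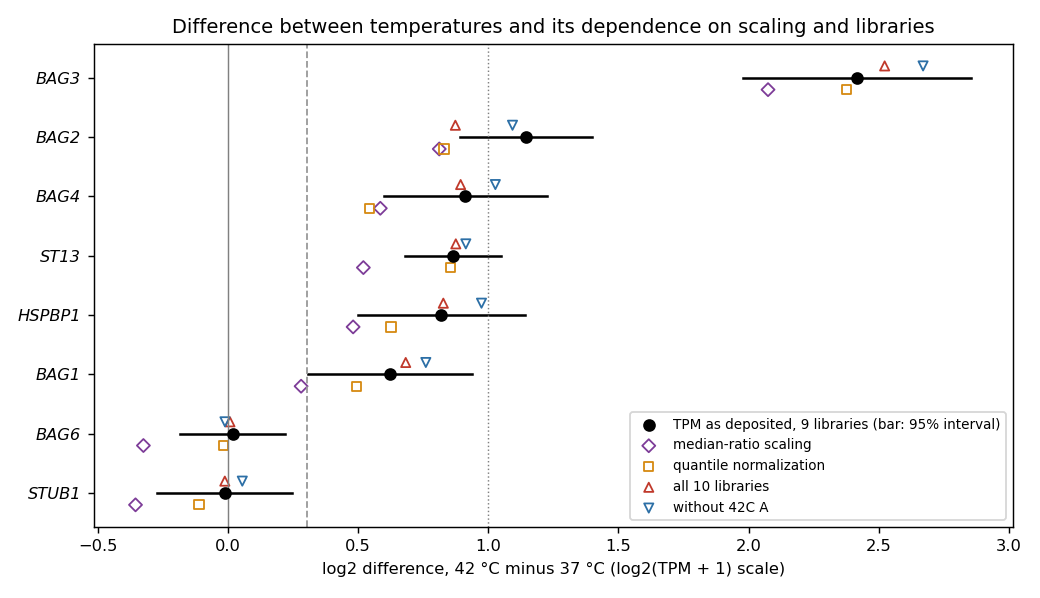
Log2 difference of each member, 42 °C minus 37 °C, on the log2(TPM + 1) scale, with black points and bars for the deposited TPM and its 95% interval, open symbols for other scalings and sets of libraries, a dashed line at the median of all genes (0.30) and a dotted line at 1. BAG3 stays above 2 throughout, BAG2 drops below 1 with 3 of the 4 alternatives shown, and BAG6 and STUB1 lie near 0 except with median-ratio scaling, where they are at -0.32 and -0.35.

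ST13 (ENSBTAG00000006202), the factor that stabilizes the ADP state, was among the most even members. It had 338, 372, 393 and 400.5 TPM in 42C A, C, D and E, against 199.7, 209.6, 198, 216 and 205 TPM in 37C A to E. Every HS library, 42C A and 42C B (390.3 TPM) included, lay far above every thermoneutral library. ST13 averaged 376 ± 28.1 TPM in the 4 HS libraries, against 206 ± 7.44 TPM in the 5 thermoneutral libraries (mean ± SD), a log2 difference of 0.86 (95% interval 0.68 to 1.05, limma adjusted p = 2.67e-05). Within pools the ratio was 1.69 for A, 1.88 for C, 1.82 for D, 1.95 for E and 1.86 for B, and with median-ratio scaling the log2 difference was 0.52.

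HSPBP1 (ENSBTAG00000003644), an exchange factor that also inhibits STUB1, had 57.7, 92.1, 86.8 and 88.2 TPM in 42C A, C, D and E, against 51.3, 44.7, 44.6, 38.4 and 46.1 TPM in 37C A to E. The groups did not overlap, yet 42C A exceeded 37C A by little. HSPBP1 averaged 81.2 ± 15.8 TPM in the 4 HS libraries, against 45.0 ± 4.59 TPM in the 5 thermoneutral libraries (mean ± SD), a log2 difference of 0.82 (95% interval 0.50 to 1.14, limma adjusted p = 0.000554). Within pools the ratio was 1.13 for A and 2.07, 2.26 and 1.92 for C, D and E. Without 42C A the log2 difference was 0.97, still below the fold threshold, and 42C B held 81.96 TPM.

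STUB1 (ENSBTAG00000019136), the ligase that BAG2 and HSPBP1 restrain, had 108, 154, 129 and 114 TPM in 42C A, C, D and E, against 140.1, 127, 134, 110.4 and 122 TPM in 37C A to E. The groups overlapped, with the highest and the lowest of these 9 values both at 42 °C. STUB1 averaged 126 ± 20.1 TPM in the 4 HS libraries, against 127 ± 11.3 TPM in the 5 thermoneutral libraries (mean ± SD), with a log2 difference of -0.01 (95% interval -0.27 to 0.25, limma adjusted p = 0.931), and 42C B held 126 TPM. With median-ratio scaling STUB1 was lower by -0.35 on the log2 scale (limma adjusted p = 0.0359). In RefSeq's ARS-UCD2.0 annotation STUB1 overlaps JMJD8 (log2 difference -0.57, limma adjusted p = 0.0129) and BAG6 overlaps APOM (0.01). The library kit does not mark strand, so that reads of these neighbours may enter both values.

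As a ratio of mean TPM, 42 °C over 37 °C, the members ran from 5.59 for BAG3 through 2.27 for BAG2, 1.96 for BAG4, 1.83 for ST13, 1.80 for HSPBP1 and 1.56 for BAG1 to 1.01 for BAG6 and 0.997 for STUB1. Within each pool of oviducts, 42C B included, the ratio was above 1 in 5 of 5 pools for BAG3, BAG1, BAG4, HSPBP1 and ST13. It was above 1 in 4 of 5 pools for BAG2 (0.827 in B), in 4 of 5 for BAG6 (0.835 in D) and in 2 of 5 for STUB1 (1.15 in C and 1.17 in D). The spread also differed between members. The coefficient of variation of BAG3 was 29.0% over the 4 HS libraries, against 11.2% over the 5 thermoneutral libraries, and that of HSPBP1 was 19.5%, against 10.2%, with 42C A the low library in both. ST13 varied by 7.48% in HS libraries, against 3.62% in thermoneutral libraries, and BAG6 by 7.08%, against 7.52%. The difference in spread between temperatures was not tested.

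The order of the members differed between temperatures. In HS organoids BAG3 was highest and lay above ST13 in 3 of 4 libraries, with overlapping ranges. BAG6, BAG1 and STUB1 followed, of which BAG1 and STUB1 overlapped, and HSPBP1, BAG2 and BAG4 came last with no overlap between neighbours. In thermoneutral organoids ST13 was highest and lay above BAG6 in 5 of 5 libraries although their ranges overlapped. STUB1 came next, BAG3 and BAG1 were level (BAG3 higher in 2 of 5 libraries), and HSPBP1, BAG2 and BAG4 again closed the order without overlap.

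The 5 measured BAG genes summed to 622, 948, 919 and 902 TPM in 42C A, C, D and E, against 391, 354, 399.6, 385 and 365 TPM in 37C A to E. BAG3 made up 54.2% ± 7.69 of that sum in the 4 HS libraries, against 22.1% ± 2.15 in the 5 thermoneutral libraries (mean ± SD), and BAG6 22.6% ± 6.06 and 48.1% ± 2.52. The share of BAG3 was 42.7% in 42C A and 57.7% to 58.3% in 42C C, D and E. These sums and shares are descriptions, with no test. The ratio of BAG3 to BAG1 transcripts was 3.64 ± 0.625 at 42 °C and 1.04 ± 0.177 at 37 °C.

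**Figure D3:**
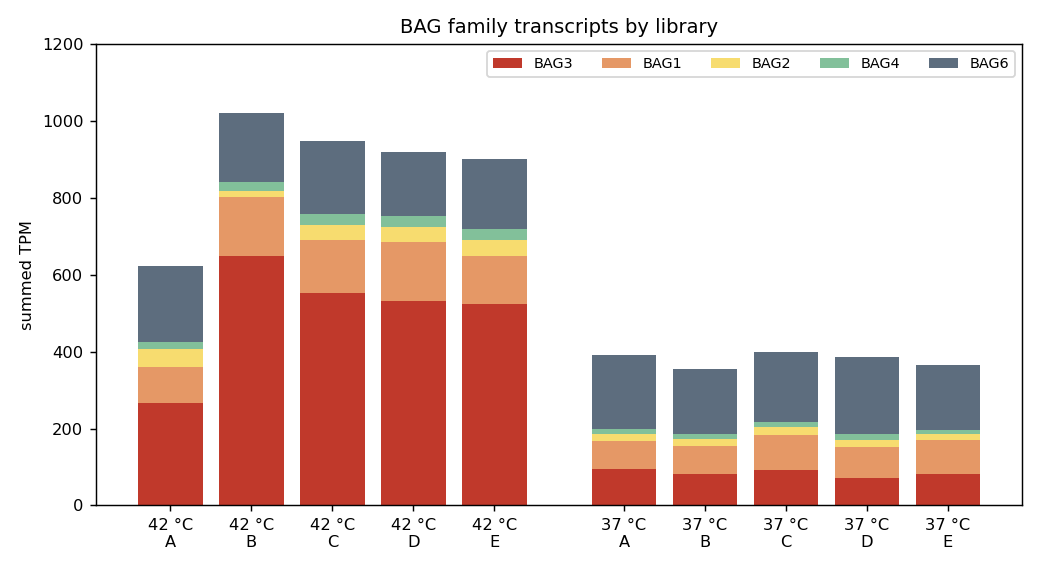
Summed TPM of BAG1, BAG2, BAG3, BAG4 and BAG6 in each library, stacked by gene, with the 42 °C libraries A to E left of the 37 °C libraries A to E. The sum runs from 622 TPM in 42C A to 1019.6 TPM in 42C B and from 354 to 399.6 TPM at 37 °C, and BAG3 is the largest part of every HS bar and BAG6 that of every thermoneutral bar.

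Since the members act on HSP70, their levels were set beside the sum of the 5 HSP70 genes, as a description. The gene HSPA1B, a near-identical copy of HSPA1A, was not analysed here, and reads of such copies may be shared. For each TPM of BAG3 the HS libraries held 17.1 (A), 17.0 (C), 16.9 (D) and 18.1 (E) TPM of HSP70, and 42C B held 19.2, against 25.6 to 33.8 TPM at 37 °C. This ratio was alike in 42C A and in the other HS libraries although 42C A held less BAG3. For each TPM of STUB1 HSP70 amounted to 64.0 ± 17.3 TPM in the 4 HS libraries, against 19.9 ± 2.43 TPM in the 5 thermoneutral libraries (mean ± SD), and for each TPM of ST13 to 21.3 ± 5.34 TPM, against 12.2 ± 1.39 TPM. For each TPM of BAG1 the same sums gave 63.0 ± 12.2 TPM in HS libraries, against 30.9 ± 1.74 TPM in thermoneutral libraries. Among BAG3, STUB1, ST13 and BAG1, only for BAG3 was the ratio lower at 42 °C. This holds for the sum, of which HSPA8 made up 2029 of 2504 TPM at 37 °C (means). HSPA8 rose by 0.79 on the log2 scale, whereas HSPA1A rose by 3.22, more than BAG3 (2.42). Set beside HSPA1A alone, BAG3 thus did not have a lower ratio at 42 °C.

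**Figure D4:**
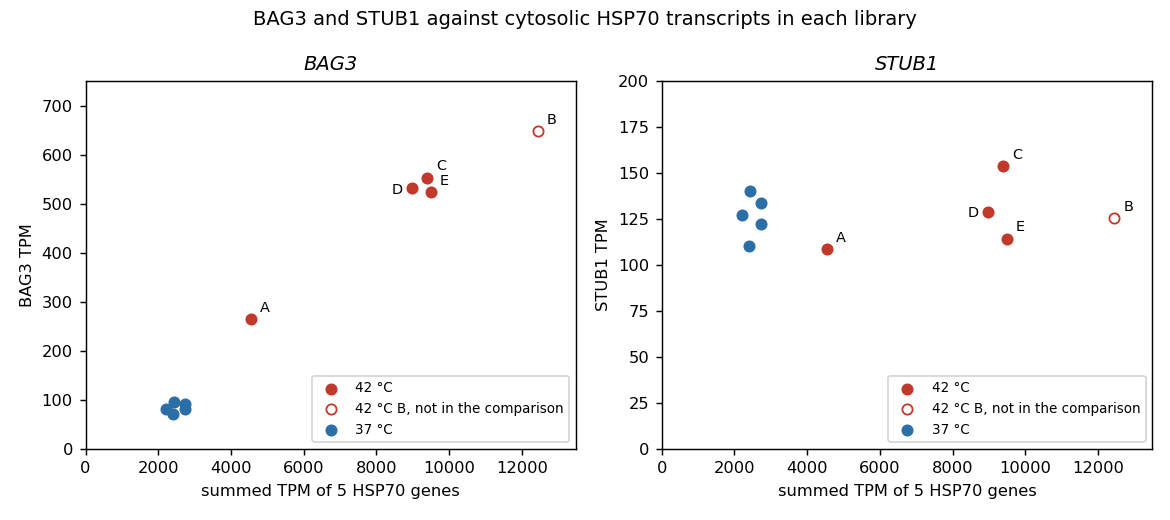
BAG3 (left) and STUB1 (right) in TPM against the summed TPM of 5 HSP70 genes, with red for 42 °C (letters name the pool, open for 42C B) and blue for 37 °C. BAG3 is at 265 TPM in 42C A and 648 TPM in 42C B, with the other HS libraries between 524 and 553 TPM, and no common order of BAG3 and HSP70 among those libraries or within 37 °C, while STUB1 stays between 108 and 154 TPM.

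The genes whose levels ran most like BAG3 over all 10 libraries, by Pearson r of log2(TPM + 1) among 9542 named genes with a mean of 5 TPM or more, were CRYAB (r = 0.997), SNX3 (0.997), FKBP4 (0.997), HSPA1A (0.996) and UCK1 (0.995). CRYAB is a small heat shock protein, FKBP4 an HSP90 co-chaperone, SNX3 a sorting nexin and UCK1 a uridine-cytidine kinase. As 501 genes had an r above 0.95, and the libraries differ foremost by temperature, this is a description. Over the 9 libraries of the comparison CRYAB remained first (0.998), followed by PRPF3, TSR1, DEPDC5 and AMMECR1L.

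Of the HSP70 proteins themselves, 4 of 11 measured genes were called higher and 0 lower, beside 15.8% and 7.14% of all genes. Without regard to size, 10 were higher and 0 lower at an adjusted p below 0.05, beside 45.1% and 18.1% of all genes. Among the 10 was HSPA1L (limma adjusted p = 0.0483), which reached 1 TPM in only 3 of the 5 thermoneutral libraries. It thus passed the filter with the help of the HS libraries. HSPA1A averaged 4367 ± 1745 TPM in the 4 HS libraries, against 429.5 ± 30.2 TPM in the 5 thermoneutral libraries (mean ± SD). HSPA12A, a distant relative, rose by 2.34 on the log2 scale (limma adjusted p = 5.88e-06) and HSPA13, of the microsomes, by 1.29. HSPA13 was not called with median-ratio scaling (0.96) or quantile normalization (0.98), which left 3 of 11. With median-ratio scaling 7.55% of all genes were called higher. HSPA6, an inducible form, rose by 4.34 and was at 4.33 TPM in 42C A. The list median was 0.79, against 0.30 for all genes.

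Among exchange factors outside the BAG family 3 of 7 measured genes were called, each of them higher, beside 15.8% of all genes. These were the HSP110 relatives of HSP70 in the cytosol. HSPH1 averaged 461 ± 127 TPM in the 4 HS libraries, against 35.8 ± 5.46 TPM in the 5 thermoneutral libraries (mean ± SD), with a log2 difference of 3.61, above that of BAG3. HSPA4 rose by 1.49 and HSPA4L by 2.21. However, HSPA4L reached 1 TPM in only 3 of the 5 thermoneutral libraries and so passed the filter with the help of the HS libraries. Without HSPA4L 2 of 6 genes were called higher. The exchange factors of the endoplasmic reticulum, HYOU1 and SIL1, and of mitochondria, GRPEL1 and GRPEL2, which lie outside the naming rule, were not called and differed by 0.83, 0.62, 0.36 and -0.45.

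J-domain proteins stand at the other end of the HSP70 cycle. Of 16 measured, 7 were called higher and 0 lower, beside 15.8% and 7.14% of all genes. Without regard to size, 12 were higher and 1 lower at an adjusted p below 0.05, beside 45.1% and 18.1% of all genes. DNAJB1, the classical partner of HSP70 in the heat shock response, averaged 432 ± 144 TPM in the 4 HS libraries, against 81.1 ± 6.50 TPM in the 5 thermoneutral libraries (mean ± SD). DNAJA4, DNAJB4 and DNAJA1 rose by 2.38, 2.25 and 1.75, and the list median was 0.90. Of HSP90 and its bridging co-chaperones 7 of 14 were called higher and 0 lower, beside the same 15.8% and 7.14%. Without regard to size 11 were higher and 0 lower, beside the same 45.1% and 18.1%. The largest differences were those of HSP90AA1 (1.90), CHORDC1 (1.44), FKBP4 (1.33) and AHSA1 (1.25), and the median was 0.93. With median-ratio scaling 2 of these 14 were called higher, beside 7.55% of all genes, and FKBP4 and AHSA1 were not among them.

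Among partners of BAG3 in aggregate handling and selective autophagy, 6 of 22 tested genes were called higher and 1 lower. These stand beside 15.8% and 7.14% of all genes. With median-ratio scaling 4 were called higher and 1 lower, beside 7.55% and 11.8%. HSPB8, the small heat shock protein that forms a complex with BAG3, averaged 144 ± 32.8 TPM in the 4 HS libraries, against 28.8 ± 5.11 TPM in the 5 thermoneutral libraries (mean ± SD), with a log2 difference of 2.27 (limma adjusted p = 1.03e-05). CRYAB and HSPB1, both small heat shock proteins, rose by 4.20 and 2.10. WIPI1, which acts in autophagosome formation, fell to 5.09 ± 4.98 TPM at 42 °C, against 14.5 ± 3.04 TPM at 37 °C, a difference of -1.61, with 12.5 TPM in 42C A. Outside the naming rule, SQSTM1, an autophagy receptor, and LAMP2, a lysosomal membrane protein, differed by 0.84 and 0.56 and were not called, though SQSTM1 was with 42C B added (1.16). The median was 0.85.

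The BAG6 complex and the path of tail-anchored proteins had 3 of 12 measured genes called higher and 0 lower, beside 15.8% and 7.14% of all genes. GET1, a receptor subunit of the endoplasmic reticulum, rose by 1.04, UBQLN1, a ubiquilin, by 1.03 and SGTB, a co-chaperone of low level (1.78 ± 0.530 TPM in HS libraries, against 0.147 ± 0.0943 TPM in thermoneutral libraries), by 1.26. Neither GET1 nor UBQLN1 was called with median-ratio scaling. GET1 was not called without 42C C (0.99) or 42C D (0.92), and UBQLN1 not without 37C A (0.97), 42C D (0.99) or 42C E (0.99). SGTB passed the filter only through the HS libraries, as it reached 1 TPM in 4 of 4 of them and in 0 of 5 thermoneutral libraries, so its passing the filter depended on the group in which it was high. Without it 2 of 11 genes were called higher, a share close to that of all genes. Outside the naming rule, UBL4A and GET4, which form the complex with BAG6, differed by -0.19 and -0.53, and RNF126, its ubiquitin ligase, by -0.90 (-1.24 with median-ratio scaling, where it was called lower). The median was 0.64. Of STUB1's ubiquitin-conjugating partners and related ligases 2 of 12 were called higher, close to the 15.8% of all genes, and 0 lower. Without regard to size, 6 were higher and 2 lower at an adjusted p below 0.05, beside 45.1% and 18.1% of all genes. ATXN3, a deubiquitinase, rose by 1.14 and UBE4A, a U-box ligase, by 1.05. Neither was called with median-ratio scaling, nor UBE4A without 37C A (0.99) or 42C D (0.92). The median was 0.31, near that of all genes.

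Heat shock factors, the transcription factors that bind heat shock promoters, were represented by 2 tested genes. HSF1 stood at 60.0 ± 2.85 TPM in the 4 HS libraries, against 62.3 ± 4.64 TPM in the 5 thermoneutral libraries (mean ± SD), a log2 difference of -0.05 (limma adjusted p = 0.654). HSF2 differed by 0.75 (limma adjusted p = 0.00172) and was not called.

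**Figure D5:**
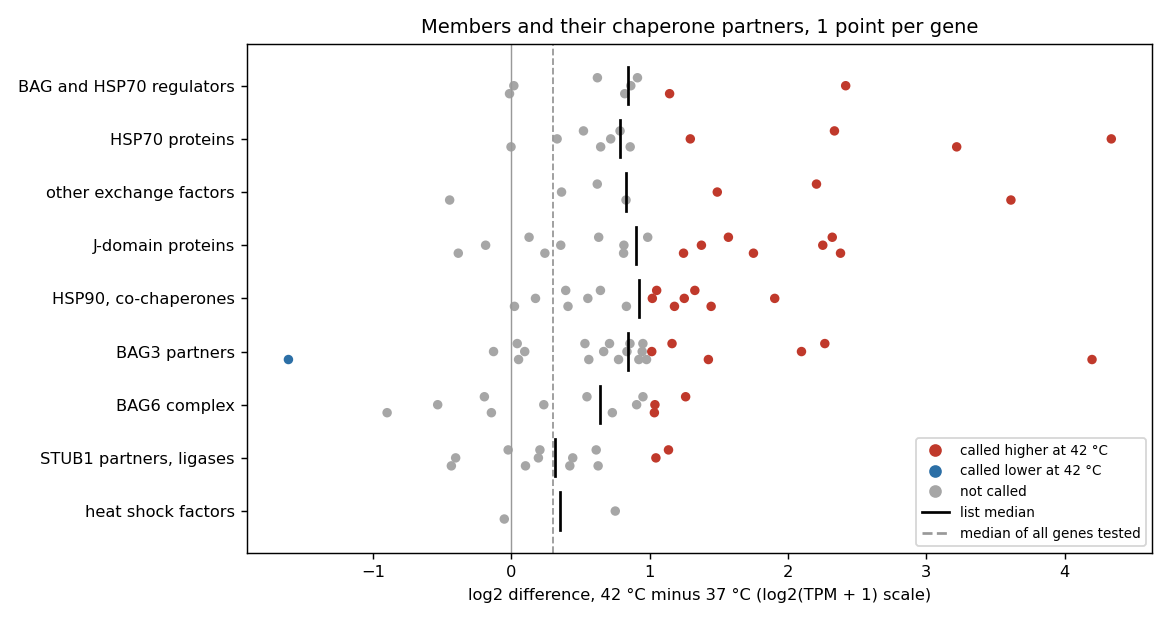
Log2 difference, 42 °C minus 37 °C, of each measured gene in the members and in 8 lists of chaperone partners, with red for genes called higher, blue for genes called lower, grey for genes not called, black ticks for list medians and a dashed line for the median of all genes (0.30). List medians run from 0.31 for STUB1 partners to 0.93 for HSP90 co-chaperones, and WIPI1 at -1.61 is the single gene called lower.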

How the data were processed

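Libraries were sequenced, FASTQ files were made with bcl2fastq, and reads were trimmed on quality and mapped by the authors in CLC Genomics Workbench to ARS-UCD1.2. Bowtie2 2.2.2 and DESeq2 stand in the submitters' processing notes, with roles not given in the sources used here. The deposited values are TPM per gene and library, and each of the 10 columns sums to 1000000. Each value is thus a share of its library, and a rise of some transcripts lowers others. Counting intervals were not given, as read counts per gene are not part of these values.

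A filter of 1 TPM, to be reached in no fewer than 4 of 9 libraries, left 12149 genes (45.3% of the table), among them all 8 members found. Values on the log2(TPM + 1) scale, which understates changes of low genes, were tested with limma 3.58.1 in R 4.3.3 (eBayes with trend, two-sided, Benjamini-Hochberg over all genes tested). Calls needed an adjusted p below 0.05 together with a difference of at least 1 in size. The procedure was tested on simulated data. A count model was not applied to TPM.

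The members, the 8 gene lists and the tests were chosen with earlier results of these data known. The rises of BAG3, CRYAB, HSPA1A, HSPA6, HSPH1, DNAJB1 and DNAJA4 among them are not independent evidence. Named genes were all members, up to 4 called genes per list with the largest difference (or, with fewer than 2 calls, the 2 with the smallest p), and the 5 genes most like BAG3. Libraries of the same letter share their oviducts and deviated together from their group means, with correlations across genes of 0.131 (A), 0.240 (B), 0.375 (C), 0.278 (D) and 0.221 (E), so a fit with the letter as a block was an alternative. Other alternatives were the pseudocount, filter, scaling, variance model, all 10 libraries and leaving out each library. Overlapping neighbours were taken from RefSeq's ARS-UCD2.0 annotation by name only, since the build differs. No sequences were used here.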

Additional observations from a re-analysis of the deposited data

Results flagged for a closer look

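A library set apart from the others of its group was looked for in 24 groups of member values, and 3 were found. The groups were 42 °C with all 5 libraries, 42 °C with the 4 of the comparison, and 37 °C. Chance marks about 1 in 20 of such groups taken singly. The 42 °C groups share libraries and all members come from the same libraries, so the flags are not independent. BAG3 at 265 TPM and HSPBP1 at 57.7 TPM in 42C A lay far below 42C C, D and E. BAG2 at 15.9 TPM in 42C B lay far below the other HS libraries.

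The library 42C B, which the comparison does not use, held 5 members above every thermoneutral library. These were BAG1 at 154 TPM, BAG3 at 648 TPM, BAG4 at 24.0 TPM, HSPBP1 at 81.96 TPM and ST13 at 390.3 TPM.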

How the results depend on the processing

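BAG3 was called higher under all alternatives run, with log2 differences of 2.07 to 2.67. BAG2 was not called with median-ratio scaling (0.81), quantile normalization (0.83), all 10 libraries (0.87) or the replicate block with all 10 libraries (0.87), so that 1 member was called in each of these 4, and 0 members were called lower under any. Leaving out each library gave 2 to 3 members called, with BAG4 between 0.84 and 1.03. The direction of BAG6 turned with median-ratio scaling (-0.32), quantile normalization (-0.017), without the mitochondrial genome (-0.025) and with the replicate block (-0.0061), and leave-one-out values ran from -0.011 to 0.067. Those of STUB1 ran from -0.11 to 0.055. With the replicate block no call of a member changed among the 9 libraries. All genes called numbered 1915 higher and 867 lower, against 884 and 487 with a pseudocount of 5, 917 and 1439 with median-ratio scaling, and 981 and 1253 with quantile normalization, so that lower calls outnumbered higher ones with both scalings. Differences turned round only for BAG6 and STUB1, and the cause was not tested. Planned descriptions of promoter motifs and protein sequences were not run, as no sequence was used here. Read counts per gene are not part of the values used, so the counting error of low genes such as SGTB was not estimated.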

Other observations

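Across the HS libraries BAG2 and BAG3 ran in opposite order at the extremes, a pattern noticed after the values were seen and not tested. In 42C A BAG2 was highest (46.9 TPM) and BAG3 lowest (265 TPM), and in 42C B BAG2 was lowest (15.9 TPM) and BAG3 highest (648 TPM). The ratio of BAG2 to BAG1 was 0.501 in 42C A and 0.103 in 42C B, against 0.177 to 0.262 at 37 °C. HSPA12A was also lower in 42C B (22.8 TPM) than in 42C A (44.5 TPM), while HSPB8 was higher in 42C B (333 TPM) than in 42C A (98.5 TPM).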
